A study of Rattus norvegicus with 3 samples.

Results

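The genes of protein phosphatase subunits were examined in single cell bodies of rat neurons. A probe set belonged to them where the array annotation gave it exactly 1 gene symbol and this symbol began with Ppp followed by a digit up to 6. The rule found 68 genes with 111 probe sets, of 14218 genes with 20832 probe sets that carry 1 symbol and of 31099 probe sets in all. Of these members 11 encode catalytic subunits and 57 encode scaffold, targeting or inhibitory proteins, which are called regulatory here. By enzyme, 37 belong to PP1, 16 to PP2A, 5 to calcineurin, 5 to PP4, 1 to PP5 and 4 to PP6.

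Gene expression was measured on 3 Affymetrix rat expression arrays, and each array carried RNA of 1 soma that was cut with a glass pipette from a cultured pyramidal hippocampal neuron. Embryos of the Sprague-Dawley strain at day 19 supplied the neurons, which had been kept in dispersed culture for 14 days without treatment. The arrays formed 1 group with no second condition, and the somata are numbered here as cells 1, 2 and 3 by their replicate labels. The labels name neither animal nor dish, so the spread over the cells may include technical spread, no p-value was computed, and with so small a number of arrays each value has limited precision.

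Protein phosphatases remove phosphate from serine and threonine residues and so oppose protein kinases. A small number of catalytic subunits is shared among many regulatory proteins, which bring the enzyme to its substrates, hold it at a site in the cell or block it. In hippocampal neurons PP1 and the calcium-activated phosphatase calcineurin are known for their part in long-term depression, in which synapses become weaker, and PP2A is known for acting on the microtubule protein tau.

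The deposited values were log2 intensities, and a gene was given the median of its probe sets. Its percentile is its rank among the 14218 genes of the same array, so that 50 marks the middle of the array. A percentile depends on how well the probes bind as well as on the amount of RNA, and it does not order transcripts by abundance. The background was set by 138 genes thought to be silent in neurons, and a gene passed it where it read higher than 95% of them on that array. They were 28 chemosensory receptor genes and 110 genes of other organs. The limit lay at 9.63, 10.04 and 9.40 log2 in cells 1, 2 and 3, against array medians of 7.23, 7.16 and 7.09. Unless a probe set is named, a gene passed or did not pass by the median of its probe sets, so a gene that did not pass can hold a single probe set that did. By its construction 7 of the silent genes passed it in each cell.

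Only part of the 7 measured markers of pyramidal neurons read high. Neurod2 and Nrgn, a transcription factor and a calmodulin-binding protein of excitatory neurons, were above background in all 3 cells, whereas the other 5 were not, and Camk2a stood at percentiles 26.5, 19.6 and 26.2 in cells 1, 2 and 3. The median percentile of the 7 measured pyramidal markers was 54.4, 51.2 and 94.7, and that of 8 general neuron markers was 76.2, 77.1 and 86.1. Some markers of other cells read high in single cells: the 7 astrocyte markers had medians of 77.3, 33.2 and 37.4 in cells 1, 2 and 3, the 6 oligodendrocyte markers had 80.0, 64.5 and 56.6, and the 7 microglia markers had 51.6, 50.3 and 28.3. Of the microglia markers Csf1r, Tyrobp and Itgam passed the background in cell 1, while Aif1, Cx3cr1, C1qa and C1qb were higher in cell 2 or cell 3. The 7 interneuron markers had medians of 41.7, 55.9 and 34.7, with Vip above background in cell 2. Of the 6 endothelial markers, Vwf passed the background in all 3 cells, at percentiles 99.8, 99.8 and 99.7, and the other 5 passed in none. The part of these markers in the values of the phosphatase genes was not tested.

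The subunit genes as a group lay above the middle of the array. Their median percentile was 57.6, 62.8 and 59.9 in cells 1, 2 and 3, or 60.1 ± 2.62 (SD, n = 3 cells), against 50 for all genes and 34.8 ± 3.65 for the silent genes. A total of 26 members (38.2%) were over the median of the array in every cell, against 26.4% of all genes. Another 15 (22.1%) were under it in every cell, against 25.0% of all genes, and the remaining members changed sides between cells.

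Only a small number of members passed the background. In cell 1 they were 3 of 68 (4.41%), where 7.57% of all genes passed. In cell 2 they were 4 (5.88%), against 5.58% of all genes. In cell 3 they were 13 (19.1%), against 11.1% of all genes, so the share was under the background rate in cell 1, near it in cell 2 and over it in cell 3. The members above background in all 3 cells were Ppp1r9b and Ppp2r1b, each read by 1 probe set. They were 2 of 68 (2.94%), against 2.1% of all genes. Ppp2r2b and Ppp2r5d passed in cells 2 and 3, 10 members passed in 1 cell and 54 passed in none. Over all 14218 genes, 469 passed in 2 cells, 1609 in 1 cell and 11841 in none. The counts of members depended on the probe set chosen for a gene and on single cells: with the brightest probe set of each gene 9, 9 and 20 members passed in cells 1, 2 and 3 and 5 in all of them, and without cell 1 the members above background in both remaining cells numbered 4. The share of all genes was not computed under these other settings, so these counts cannot be set against the array.

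**Figure D1:**
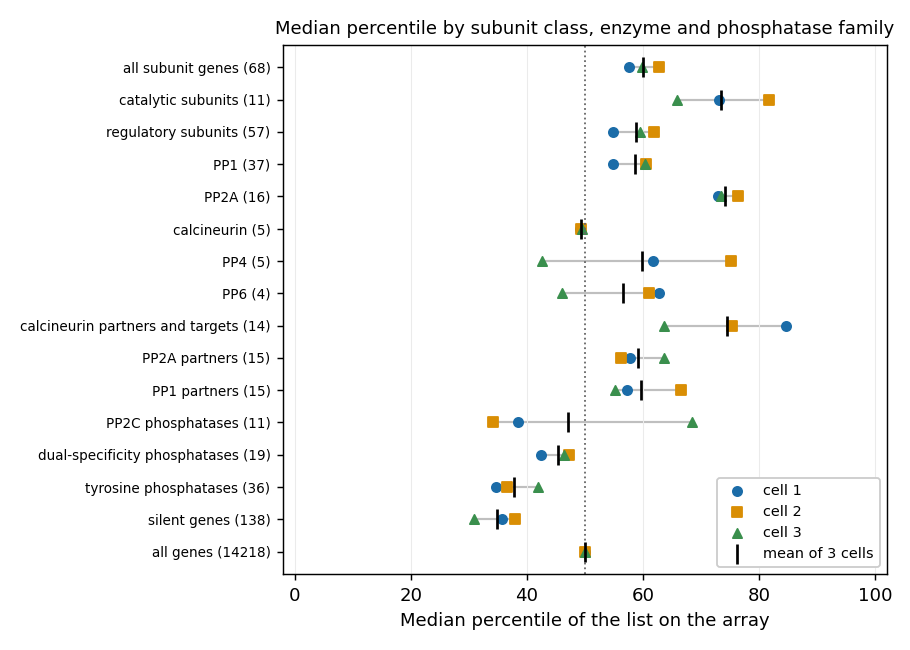
Median over each list of the percentiles of its genes, by cell (points; circle, square and triangle for cells 1, 2 and 3), with a black tick at the average over the 3 cells and the number of measured genes in parentheses; the dotted line marks percentile 50. Catalytic subunits lay to the right of regulatory subunits in every cell, PP2A genes lay between 72.9 and 76.3, and the 5 calcineurin genes lay close to 50.

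Catalytic subunits stood higher on the arrays than regulatory ones. The median percentile of the 11 catalytic genes was 73.0, 81.6 and 65.8 in cells 1, 2 and 3 (73.5 ± 7.92, SD, n = 3), against 54.8, 61.9 and 59.5 (58.7 ± 3.59) for the 57 regulatory genes. The difference was in the same direction in every cell and averaged 14.8 ± 7.35 percentile points. With 3 cells of 1 group and different probes on each gene it was not tested. With the brightest probe set of each gene the difference was 12.7 ± 12.7 percentile points. Another ranking kept only genes whose mean exceeded the mean background, which left 6 members (2 catalytic and 4 regulatory). Ranked among those genes alone, and so on another scale, the difference was -9.89 ± 27.3 percentile points (SD, n = 3). In cell 3, 5 of 11 catalytic genes (45.5%) and 8 of 57 regulatory genes (14.0%) were above background, against 11.1% of all genes. In cells 1 and 2, where 7.57% and 5.58% of all genes passed, no catalytic gene passed by its median. Even so, 1 of the 3 probe sets of Ppp3ca did in both.

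Among the enzymes PP2A stood highest and varied little between cells. The 16 PP2A genes had medians of 72.9, 76.3 and 73.4 (74.2 ± 1.88), against 54.8, 60.5 and 60.3 (58.5 ± 3.21) for the 37 PP1 genes. PP4 gave 61.8, 75.2 and 42.6 (59.8 ± 16.4) over 5 genes and PP6 gave 62.7, 61.0 and 46.1 (56.6 ± 9.14) over 4 genes, so that neither could be placed apart from PP1 beyond the spread of the cells. Calcineurin, with 5 genes, had medians of 49.1, 49.3 and 49.5, which came from high and low subunits within each cell.

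The catalytic subunits of PP1 are encoded by Ppp1ca, Ppp1cb and Ppp1cc, which yield the alpha, beta and gamma forms of an enzyme found in all tissues. Ppp1ca read 8.38, 9.77 and 10.87 log2 in cells 1, 2 and 3, at percentiles 77.7, 92.9 and 97.0. Ppp1cc read 7.92, 9.04 and 9.89 log2, at percentiles 67.7, 86.6 and 92.4. Ppp1cb read 7.49, 7.07 and 9.76 log2, at percentiles 56.7, 45.3 and 91.7. Each was highest in cell 3, where each passed the background, and none passed in cell 1 or cell 2. The distance between the lowest and the highest cell came to 5.62-fold for Ppp1ca, 6.49-fold for Ppp1cb and 3.92-fold for Ppp1cc on the deposited scale.

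The PP2A core enzyme joins a catalytic subunit, Ppp2ca or Ppp2cb, to a scaffold subunit, Ppp2r1a or Ppp2r1b. Ppp2cb read 8.84, 9.64 and 10.63 log2 (percentiles 85.1, 92.0 and 95.9) and was above background in cell 3. Ppp2ca read 8.13, 8.64 and 7.71 log2 (percentiles 73.0, 81.6 and 63.2), with cell 3 as its lowest. A further probe set that carries Ppp2ca together with its copy Ppp2cal1 read 10.21, 9.08 and 11.05 log2 and was left out by the rule. The level of Ppp2ca therefore depends on the probe set, and the RNA of near-identical copies cannot be told apart by such probes.

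Of the scaffolds, Ppp2r1b was among the steadiest members. It read 10.13, 10.22 and 9.92 log2, at percentiles 95, 95.3 and 92.5, and was above background in each cell. Ppp2r1a, described as the main scaffold isoform of most tissues, read 7.18, 8.50 and 8.06 log2, at percentiles 47.3, 79.4 and 70.9, and passed in none. These values come from different probes and give no ratio of the isoforms.

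Calcineurin consists of a catalytic A subunit (Ppp3ca, Ppp3cb or Ppp3cc) and a calcium-binding B subunit (Ppp3r1 or Ppp3r2). Ppp3ca, the main catalytic form of brain, read 9.05, 9.43 and 11.12 log2 in cells 1, 2 and 3, at percentiles 87.7, 90.3 and 97.8. Ppp3cb read 8.19, 8.96 and 7.17 log2, at percentiles 74.2, 85.7 and 49.5, but its probe sets opposed each other: 1 was highest in cell 3 (7.58, 9.57 and 10.17 log2) and another lowest there (8.91, 5.72 and 5.27). Ppp3cc, known from testis, read 6.93, 6.74 and 7.82 log2, at percentiles 40.3, 36.4 and 65.8. Ppp3ca had the highest percentile of the calcineurin genes in every cell. Its median passed the background in cell 3, and 1 of its 3 probe sets, at 10.71, 11.99 and 12.08 log2, passed in each cell.

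The B subunits stood lower by their median. Ppp3r1, the B subunit of most tissues, read 7.24, 7.21 and 6.95 log2, at percentiles 49.1, 49.3 and 43.7. Ppp3r2, the B subunit of testis, read 5.23, 6.44 and 4.41 log2, at percentiles 6.05, 29.0 and 1.28. By the gene values used here, both were under the median of the array in every cell. For Ppp3r1 this depended on the probe set. Ranked among all probe sets, its 3 probe sets stood at percentiles 50.3, 66.1 and 58.0, at 82.9, 42.4 and 46.9 and at 9.60, 51.4 and 1.68. The medians of the 3 catalytic genes, 74.2, 85.7 and 65.8, lay over those of the B subunits, 27.6, 39.2 and 22.5, in each cell. Gene by gene this did not hold throughout, since Ppp3r1 stood over the catalytic gene Ppp3cc, at 40.3 and 36.4, in cells 1 and 2.

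The remaining catalytic subunits varied more. Ppp4c, the catalytic subunit of PP4, read 6.87, 8.28 and 6.91 log2, at percentiles 38.3, 75.2 and 42.6. Ppp5c, which carries its regulatory domain within the same chain, read 5.83, 4.88 and 5.83 log2, at percentiles 14.3, 3.73 and 17.6, and was the catalytic gene under the median of the array in every cell. Ppp6c read 9.08, 7.16 and 5.16 log2, at percentiles 88.0, 47.8 and 7.48. Its range of 3.92 log2, or 15.2-fold, was the widest of the catalytic genes, with cell 1 high and cell 3 low.

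**Figure D2:**
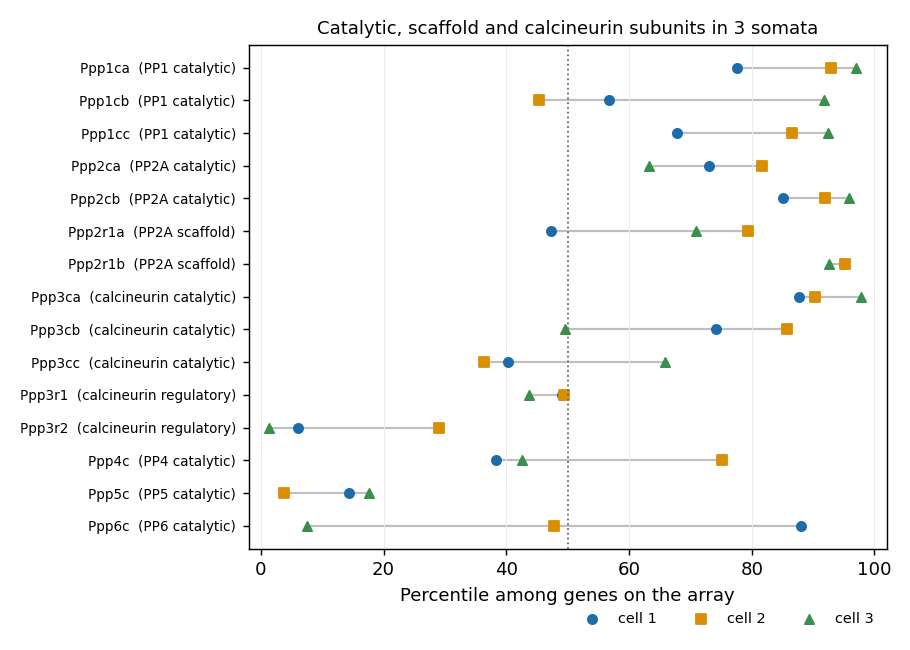
Percentile among the genes of the array (horizontal axis, 0 to 100) of the catalytic, scaffold and calcineurin subunit genes, 1 row per gene and 1 point per cell (circle, square and triangle for cells 1, 2 and 3), joined by a grey line; the dotted line marks percentile 50. Ppp2r1b and Ppp3ca lay at the right in all cells, Ppp5c and Ppp3r2 at the left, and Ppp6c spanned percentiles 7.48 to 88.0.

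PP1 is held near its substrates in dendritic spines by actin-binding partners. Ppp1r9b encodes spinophilin, a scaffold of spines that binds PP1, and read 9.96, 10.11 and 10.24 log2 in cells 1, 2 and 3. It stood at percentiles 94.3, 94.8 and 94.2 and was above background in each cell, with a range of 0.29 log2. Its relative neurabin, Ppp1r9a, read 8.07, 8.24 and 8.11 log2, at percentiles 71.6, 74.4 and 71.9, and passed in none. Both held their place from cell to cell, in contrast to the actin-binding phostensin gene Ppp1r18, at percentiles 43.8, 69.1 and 27.4.

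The inhibitors of PP1 include small proteins that become active when kinases phosphorylate them. Over their 10 measured genes the median percentile was 71.1, 62.8 and 53.5 in cells 1, 2 and 3, and none passed the background in any cell by its median, although Ppp1r2 held single probe sets that passed. Of all genes, 7.57%, 5.58% and 11.1% passed in cells 1, 2 and 3. Ppp1r1b encodes DARPP-32, best known from striatal neurons that respond to dopamine, and read 8.59, 7.73 and 8.65 log2 (percentiles 81.3, 63.2 and 81.2). Ppp1r1a encodes inhibitor-1, a target of protein kinase A, and read 7.14, 7.69 and 8.13 log2 (percentiles 46.3, 62.4 and 72.2). The cells of these 2 genes overlapped in level.

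Other inhibitor genes differed widely between cells. Ppp1r2, for inhibitor-2, read 9.35, 9.12 and 6.07 log2, at percentiles 90.4, 87.5 and 22.5. Ppp1r17, for G-substrate, which is known from cerebellar Purkinje cells, read 8.94, 10.04 and 6.60 log2, at percentiles 86.4, 94.4 and 34.7, and its value in cell 2 was 0.004 log2 under the limit there. In both genes cell 3 stood apart as the low one. Ppp1r11, for inhibitor-3, was low in cell 2 instead, at percentiles 82.3, 30.9 and 87.6.

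At the lower end was Ppp1r14a, for CPI-17, an inhibitor of myosin phosphatase in smooth muscle, with 4.79, 4.53 and 5.31 log2 at percentiles 2.45, 1.47 and 9.42. Ppp1r14c, for the related inhibitor KEPI, held percentiles 83.7, 84.2 and 83.5 and had a range of 0.10 log2; it is named here after its values were seen. Its small range joins probe sets that moved oppositely, at 8.40, 8.84 and 8.45 and at 9.07, 8.84 and 9.22 log2. These relatives were on opposite sides of the median of the array in every cell.

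Glycogen-targeting subunits, which bring PP1 to glycogen in muscle and liver, had the lowest medians of the PP1 regulatory groups in cells 1 and 3. Their medians over 4 genes were 17.8, 26.9 and 34.8. Ppp1r3a, the subunit of skeletal muscle, read 5.24, 5.36 and 5.79 log2, at percentiles 6.20, 8.95 and 17.0. Ppp1r3f stood at percentiles 80.3, 74.2 and 59.5, the only gene of this group over the median of the array in every cell.

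The myosin and membrane group includes the myosin phosphatase subunits and TIMAP. Its 5 genes had medians of 53.0, 61.9 and 68. Ppp1r16b, for TIMAP, which is anchored at membranes and known from endothelial cells, read 10.93, 9.11 and 7.92 log2, at percentiles 97.9, 87.4 and 68. It passed the background in cell 1 and had a range of 8.04-fold. The 6 endothelial markers had a median percentile of 65.6, 49.0 and 41.7 in cells 1, 2 and 3, and Vwf alone of them passed the background, in each cell. The part of these markers in the value of Ppp1r16b was not tested. Ppp1r16a, the lowest of the group by its median over the cells, stood at 53.0, 61.9 and 55.9. These values join probe sets that ran in opposite directions, at 7.25, 8.16 and 9.51 and at 7.48, 7.20 and 5.31 log2.

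Subunits of the nucleus and of the stress response lay around the middle. The 4 nuclear genes had medians of 34.8, 47.2 and 56, with Ppp1r8, for the splicing-associated inhibitor NIPP1, at percentiles 74.4, 74.9 and 91.0 and above background in cell 3. Ppp1r7, for the conserved SDS22 protein, stood at 13.3, 11.5 and 51.7. Ppp1r26 ran the other way in cell 3, at 54.8, 86.0 and 18.3. Ppp1r15a encodes GADD34, which directs PP1 to the initiation factor eIF2alpha after stress, and read 7.29, 7.62 and 7.87 log2 (percentiles 50.5, 60.5 and 66.9). Its constitutive relative Ppp1r15b stood at 42.8, 25.9 and 45.5, under the median of the array in each cell, while Ppp1r15a was over it in each. That contrast depended on the probe set. The 2 probe sets of Ppp1r15b read 8.96, 7.24 and 8.28 and 5.08, 5.36 and 5.75 log2, and the brighter one lay above Ppp1r15a in cells 1 and 3.

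The 6 other PP1 genes included the member with the widest range. Ppp1r35, whose protein is known from centrioles, read 8.97, 7.18 and 4.54 log2 in cells 1, 2 and 3, at percentiles 86.9, 48.6 and 2.01. That is a span of 4.44 log2, or 21.7-fold, with cell 1 highest. Ppp1r37 stood at percentiles 76.5, 15.0 and 84.6, with cell 2 as the low one. Ppp1r13l, for iASPP, an inhibitor of p53, stood at 81.4, 90.9 and 92.6 and passed the background in cell 3. Ppp1r42 was the lowest member of all by its median over the cells, at 0.169, 0.151 and 3.46.

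**Figure D3:**
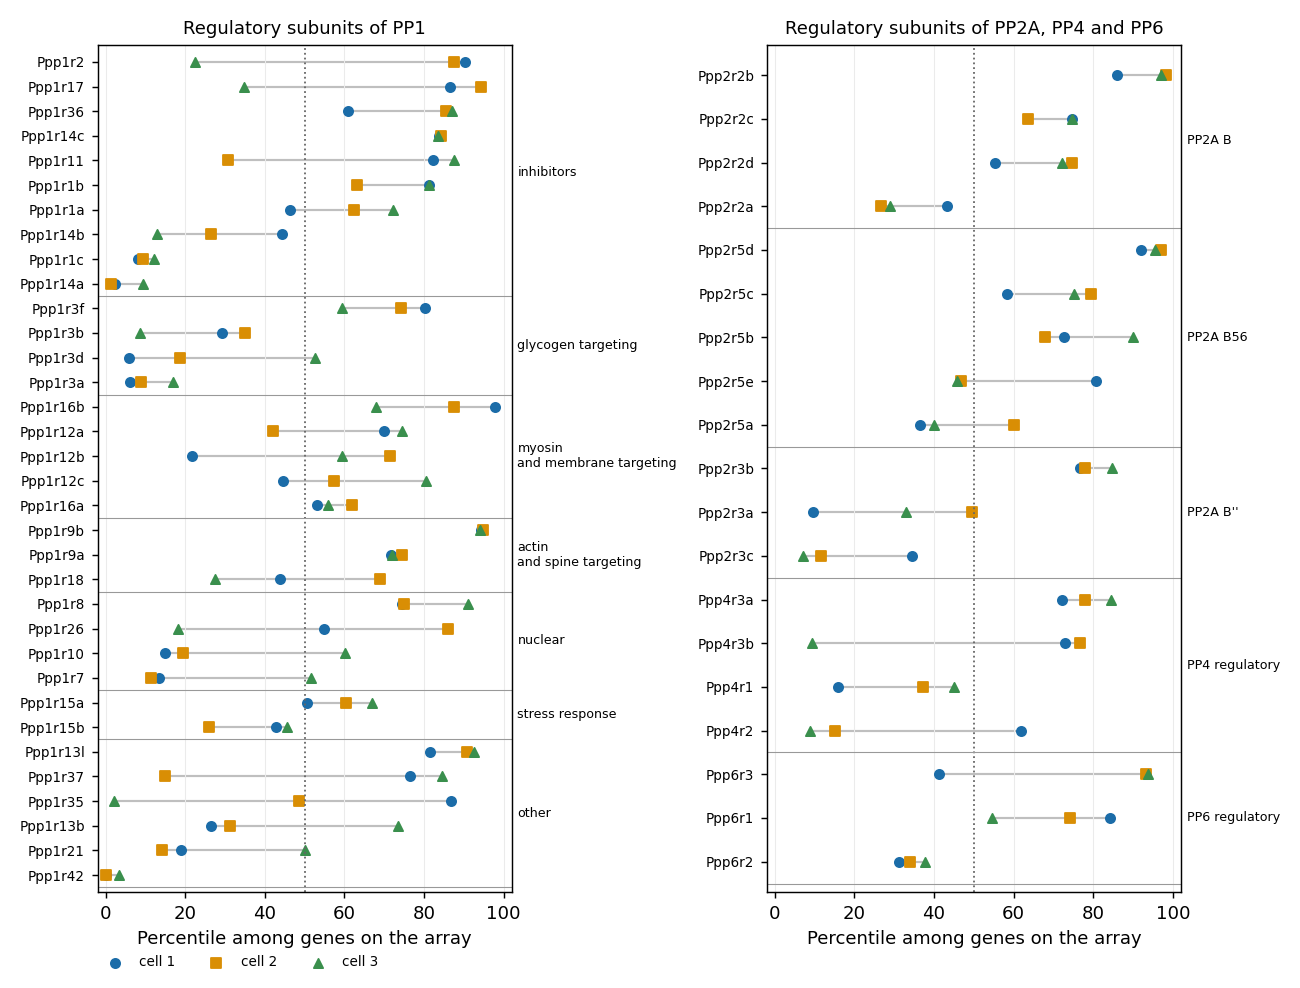
Percentile among the genes of the array of each regulatory subunit gene of PP1 (left) and of PP2A, PP4 and PP6 (right), without the PP2A scaffolds and the calcineurin B subunits; 1 row per gene, 1 point per cell (circle, square and triangle for cells 1, 2 and 3), groups divided by horizontal lines, and percentile 50 dotted. Ppp1r9b and Ppp1r14c had nearly coinciding points, whereas Ppp1r35 spanned percentiles 2.01 to 86.9.

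The PP2A core gains its choice of substrate from another subunit, drawn from the B, B56 and B'' families. The 4 genes of the B family had medians of 64.9, 69.2 and 73.4. Ppp2r2b, which is enriched in brain and whose human gene carries the repeat expanded in a spinocerebellar ataxia, read 8.91, 11.06 and 10.91 log2, at percentiles 85.9, 98.2 and 97.1. It passed the background in cells 2 and 3, and its value in cell 2 was the highest member value of that cell. Ppp2r2a, the most widely studied form, stood at 43.3, 26.8 and 29.0, the only B gene under the median of the array in any cell.

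The 5 genes of the B56 family had medians of 72.7, 67.9 and 75.3. Ppp2r5d, whose human gene is mutated in a developmental disorder of the brain, read 9.56, 10.63 and 10.53 log2, at percentiles 91.9, 97.0 and 95.5. This median passed the background in cells 2 and 3 and lay 0.07 log2 under the limit in cell 1, whereas the higher of its 2 probe sets, at 10.48, 11.53 and 11.62 log2, passed in each cell. Ppp2r5a was the lowest of the family by its median, at 36.4, 60.1 and 40.1. Its probe sets parted in cell 3, at 6.60, 7.69 and 4.83 and at 7.01, 7.52 and 8.79 log2 in cells 1, 2 and 3.

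The B'' family stood lower, with medians of 34.4, 49.5 and 33.1 over 3 genes. Ppp2r3b was its exception, at percentiles 76.6, 78.0 and 84.8. Ppp2r3c stood at 34.4, 11.7 and 7.08 and Ppp2r3a at 9.63, 49.5 and 33.1, so that both gene values were under the median of the array in each cell. For Ppp2r3a, and so for the family, this depended on the probe set. Ranked among all probe sets, those of Ppp2r3a stood at percentiles 1.05, 15.6 and 2.35 and at 36.2, 83.1 and 80.3.

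PP4 and PP6 have regulatory subunits of their own. By its median none of them passed the background in cell 1 or cell 2, where 7.57% and 5.58% of all genes passed. Single probe sets did: 1 of Ppp4r3a, at 13.44, 13.12 and 12.87 log2, passed in all 3 cells, and 1 of Ppp6r1, at 10.30, 8.13 and 7.24 log2, passed in cell 1. Ppp4r3a stood at percentiles 72.0, 77.9 and 84.6, and its relative Ppp4r3b stood at 72.9, 76.6 and 9.42. Ppp4r2 stood at 61.8, 15.0 and 8.93. Ppp6r3 read 6.97, 9.85 and 10.17 log2, at percentiles 41.3, 93.4 and 93.8, and was above background in cell 3, whereas Ppp6r2 had 31.1, 33.9 and 37.8. The last values join probe sets that ran in opposite directions, at 7.08, 6.78 and 6.49 and at 6.14, 6.50 and 6.95 log2. Cell 1 was thus the low cell for Ppp6r3 and the high cell for the catalytic gene Ppp6c.

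The 13 members not described one by one (Ppp1r1c, Ppp1r14b, Ppp1r36, Ppp1r3b, Ppp1r3d, Ppp1r12b, Ppp1r10, Ppp1r13b, Ppp1r21, Ppp2r5b, Ppp2r5e, Ppp4r1 and Ppp6r1) had median percentiles over the cells from 9.33 (Ppp1r1c) to 85.5 (Ppp1r36). By its median only Ppp2r5b of these passed the background, in cell 3, at percentiles 72.7, 67.9 and 89.9, and single probe sets of Ppp6r1 and Ppp2r5e passed in cell 1. Of all genes, 11.1% passed in cell 3.

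The spread of the members over the 3 cells was close to that of the array. The SD of a gene over the 3 cells, after quantile normalisation, had a median of 0.74 log2 over the members and 0.77 over all genes. Without cell 3 these medians were 0.47 and 0.63 log2, and without cell 1 they were 0.54 and 0.53 log2. It exceeded 1 log2 in 17 members (25.0%), against 34.0% of all genes. The steadiest enzyme was PP2A, with a median SD of 0.52 log2, against 0.78 for PP1.

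Members were most often highest in cell 3. The highest of the 3 normalised values fell in cell 1 for 13 members (19.1%), in cell 2 for 23 (33.8%) and in cell 3 for 32 (47.1%), against 32.5%, 31.2% and 36.3% of all genes. In PP1 it fell in cell 3 for 22 of 37 genes (59.5%), whereas in PP2A it fell in cell 2 for 9 of 16 (56.2%). Cell 1 held the highest value in 6 of 37 PP1 genes (16.2%) and in 4 of 16 PP2A genes (25.0%).

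The members kept their order best between cells 1 and 2. Pearson's r over the 68 members was 0.74 for cells 1 and 2, 0.51 for cells 1 and 3 and 0.65 for cells 2 and 3, against 0.47, 0.44 and 0.68 over all genes. Spearman's rho was 0.70, 0.50 and 0.60 for the members, against 0.44, 0.40 and 0.63. These correlations run across genes, which are not independent replicates and share each array and the affinity of its probes, and they are given as a description. For the 16 PP2A genes r was 0.75, 0.79 and 0.92 in the same order of cells, and for the 37 PP1 genes it was 0.79, 0.47 and 0.52. Differences of over 2 log2 occurred in 5 members (7.35%) for cells 1 and 2, in 11 (16.2%) for cells 1 and 3 and in 8 (11.8%) for cells 2 and 3, against 18.6%, 19.5% and 10.1% of all genes.

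**Figure D4:**
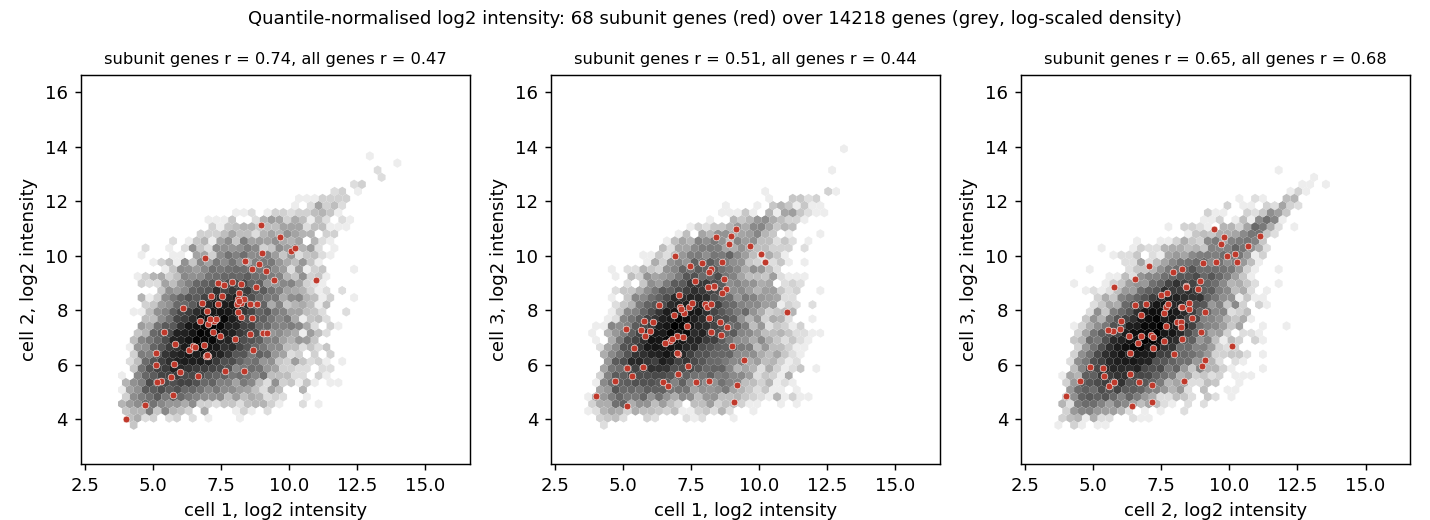
Quantile-normalised log2 intensity of 1 cell against another for the 3 pairings, with the 68 subunit genes as red points over the density of all 14218 genes in grey hexagons (darker means more genes, log-scaled). The subunit genes lay within the cloud of all genes, with r = 0.74, 0.51 and 0.65 from the left panel to the right one.

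The value of a member also depended on its probe sets, of which 38 members had 1 and 30 had 2 to 5. Members with 1 included Ppp1r9b, Ppp2r1b, Ppp2r2b, Ppp6c, Ppp1r35 and the PP1 catalytic genes, so their values could not be compared between probe sets. Over the 30 genes with several, the levels of 1 pair of probe sets per gene had an r of -0.04 in cell 1, 0.11 in cell 2 and -0.02 in cell 3, against 0.01, 0.05 and 0.07 over the 4526 such genes of the whole array. These correlations run across genes and are a description. The level of 1 probe set told little about that of another probe set of the same gene. The gene percentiles and the order of classes and enzymes given above carry this limit. The median gap between a pair was 20.3 percentile points in the members and 25.9 in all such genes. Here the percentile is the rank among all 31099 probe sets.

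Single genes show what this means for a value. Ppp4r3a had probe sets at 13.44, 13.12 and 12.87 log2, at 8.09, 8.41 and 8.92 and at 5.39, 5.17 and 5.08 in cells 1, 2 and 3, a span of median percentiles from 10.3 to 99.8. Each of these probe sets was steady over the cells while they differed from each other. Ppp1r2 had probe sets at 7.06, 9.12 and 10.58, at 9.35, 5.70 and 4.41 and at 10.80, 11.57 and 6.07 log2, which disagreed on the direction between cells as well. The low value of Ppp1r2 in cell 3 given above therefore belonged to 2 of its 3 probe sets.

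Ppp1r12a, for the myosin phosphatase targeting subunit, had the widest gap, with 4 probe sets at median percentiles from 5.60 to 96.5. Similar gaps occurred in Ppp2r5c (13.4 to 94.6), Ppp2r3a (2.35 to 80.3), Ppp4r3b (3.0 to 73.9), Ppp3cb (19.2 to 89.4) and Ppp2r2c (22.1 to 90.6). In contrast all 3 probe sets of Ppp3ca were high, at median percentiles 85.2, 88.2 and 99.1. Counted by probe set, 5 of 111 (4.50%) were above background in all 3 cells, against 2.85% of the 20832 probe sets with 1 symbol. They belonged to Ppp1r9b, Ppp2r1b, Ppp2r5d, Ppp3ca and Ppp4r3a.

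**Figure D5:**
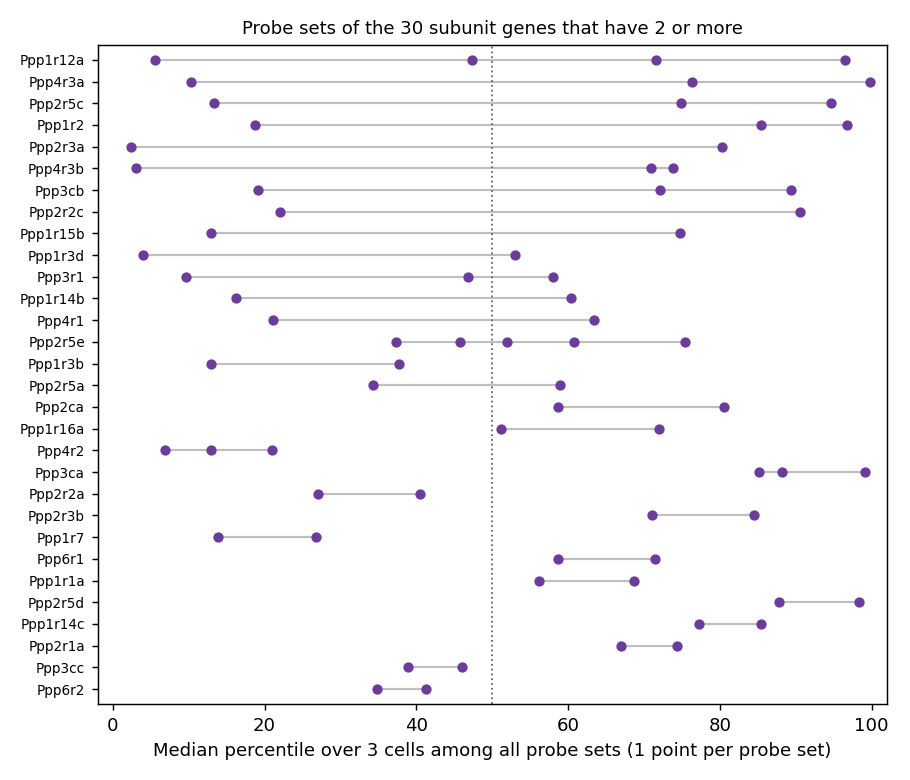
Median percentile over the 3 cells among all probe sets (horizontal axis) of each probe set of the 30 subunit genes that have 2 or more, 1 row per gene and 1 point per probe set, ordered from the widest gap at the top; the dotted line marks percentile 50. Ppp1r12a spanned 5.60 to 96.5, while Ppp3ca had all of its probe sets over 85.

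Proteins that work with these phosphatases were set beside them. The 14 measured partners and targets of calcineurin had medians of 84.6, 75.4 and 63.6 in cells 1, 2 and 3 (74.5 ± 10.5). Of them 5, 2 and 4 (35.7%, 14.3% and 28.6%) were above background, against 7.57%, 5.58% and 11.1% of all genes. Tfeb, a transcription factor of lysosomal genes that calcineurin dephosphorylates, stood at percentiles 99.8, 99.7 and 99.6 and was the only one above background in all 3 cells. Calm2, for calmodulin, which activates calcineurin, stood at 95.3, 93.3 and 97.7. Akap5, for the anchoring protein that holds calcineurin at synapses, was the lowest of the list by its median, at 18.8, 11 and 50.6.

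Partners of PP2A and PP1 lay nearer to the middle. The 15 PP2A partners had medians of 57.7, 56.2 and 63.5, with Ppme1, for the enzyme that removes the methyl group of the catalytic subunit, highest at 85.8, 73.4 and 89.5 and Igbp1, for the alpha4 protein that binds free catalytic subunits, lowest at 1.96, 2.32 and 48.9. The 15 PP1 partners had medians of 57.3, 66.5 and 55.2, from Grxcr1 at 0.890, 1.12 and 2.93 to the anchoring protein Akap11 at 66.6, 85.6 and 91.2. By its median none of these 30 genes was above background in cell 1 or cell 2, where 7.57% and 5.58% of all genes passed.

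Phosphatases of other families stood lower than the subunit genes by their medians. The 68 subunit genes had 60.1 ± 2.62, against 47.1 ± 18.7 for 11 PP2C genes, 45.3 ± 2.56 for 19 dual-specificity phosphatases and 37.7 ± 3.82 for 36 tyrosine phosphatases (SD, n = 3 cells). The PP2C list overlapped the subunit genes in cell 3, at 68.5, against 38.5 and 34.2 in cells 1 and 2. Ptprr, a receptor-type tyrosine phosphatase that acts on MAP kinases, was the only gene of these families above background in all 3 cells, at percentiles 93.5, 99.3 and 98.6.

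Promoters of the members were searched for 4 motifs on both strands, in windows from 250 bases before to 50 after the start of the gene (RefSeq, GRCr8). Windows were found for 56 members, with 58 starts, and 12 members had none in the table. The cAMP response element, TGACGTCA, to which the transcription factor CREB binds, was present in 4 of 58 windows (6.90%), against 2.70% of 13243 windows of measured genes and 1.83% of 33469 windows of all genes. The GC box GGGCGG was present in 35 (60.3%), against 55.7% and 33.1%. The CCAAT box occurred in 22 (37.9%), against 36.8% and 37.5%, and the TATA box TATAAA in 5 (8.62%), against 8.46% and 14.2%.

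The 4 windows with a cAMP response element are shown because CREB is itself a known substrate of PP1 and PP2A, and 30 bases are given around each element, with the element in capitals. They are read 5′ to 3′ on the strand of the gene, and a match is a description of the letters and not of binding.
Ppp1r12c: ggccagcggcgTGACGTCAatacaccgagc
Ppp1r15a: cgcctctccggTGACGTCAgcatagcgctg
Ppp2r2d: gcggagggggaTGACGTCAtccggcggggc
Ppp2ca: tgacgccggcgTGACGTCAccacgccgggc
The stretches lie at chr1:78362848-78362877 (plus strand) for Ppp1r12c, chr1:105139644-105139673 (minus strand) for Ppp1r15a, chr1:203095506-203095535 (plus strand) for Ppp2r2d and chr10:36858973-36859002 (plus strand) for Ppp2ca, all in the promoter window upstream of the annotated start. The element began 69, 66, 65 and 53 bases before the start of Ppp1r12c, Ppp1r15a, Ppp2r2d and Ppp2ca. In the somata these genes were not alike: Ppp1r12c stood at percentiles 44.7, 57.4 and 80.4 and Ppp2r2d at 55.2, 74.7 and 72.1 in cells 1, 2 and 3, beside the values of Ppp1r15a and Ppp2ca given above, and none of the 4 was above background in any cell by its median. The probe set that Ppp2ca shares with Ppp2cal1, which was left out, was above it in cells 1 and 3.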

How the data were processed

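Amplified RNA of 3 single somata had been hybridised to 1 array each, after several rounds of antisense RNA amplification per the labels. The authors deposited 1 log2 intensity per probe set, and the submitters' processing notes name RMA 2.0. The study's methods add centring on the median and scaling by a percentile range, stated for all arrays without naming these somata, and the deposited log2 values were not centred. A genome build and detection calls are not given in the sources used here.

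Symbols came from the platform annotation, and all 111 member probe sets were found in the RefSeq table of GRCr8 with the same symbol. A gene was given the median of its probe sets and ranked within its array, with tied values at their mean rank, since the arrays held 2889, 2866 and 2090 distinct values. Quantile normalisation over the 3 arrays was used for spread and correlation. Of 81 subunit genes listed by role, 13 were not measured under these symbols. Members and lists were chosen with earlier results of these data known. Named genes were the catalytic, scaffold and calcineurin genes, members above background in all cells, the highest and lowest of each role list by median percentile, the 8 with the largest range, the 8 with the most discordant probe sets and regulators known from synaptic plasticity. Other members are named only in passing. With 1 group, no test was run. Computation used Python 3.11.15, pandas 2.3.3, numpy 2.4.6 and scipy 1.17.1, and the scripts were tested on simulated data.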

Additional observations from a re-analysis of the deposited data

How the results depend on the processing

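Each of 14 results was recomputed under other settings, which gave 101 values: 68 stayed within the spread of the cells or within 1.5 times the count, 32 did not and 1 changed sign. For the median SD between cells, the spread used was the SD of its values with each cell left out in turn. With the brightest probe set of each gene, the median percentile was 63.8 for all members, 62.4 for regulatory, 76.8 for PP2A and 51.5 for calcineurin genes, and the members above background numbered 9, 9 and 20 in cells 1, 2 and 3 and 5 in all 3. Another setting kept only the genes brighter than the mean background and ranked them among themselves, so its percentiles are not on the scale used above. Its medians were 27.6 for all members, 23.8 for catalytic, 33.7 for regulatory, 30.7 for PP1, 30.3 for PP2A and 28.5 for calcineurin genes. The difference between catalytic and regulatory genes was -9.89 ± 27.3 (SD, n = 3 cells) over the 6 members left (2 catalytic and 4 regulatory). Why its sign changed was not tested. No PP4 or PP6 gene was left there. The mean over members in place of the median gave 56.1 for all, 65.5 for catalytic, 54.2 for regulatory, 53.9 for PP1, 66.4 for PP2A and 53.7 for calcineurin genes. Percentiles of single probe sets gave 59.9 for calcineurin and 41.7 for PP4. With the 99th percentile of the silent genes as background, 1, 1 and 4 members passed in cells 1, 2 and 3 and 0 in all 3. With the 90th percentile, 10 passed in cell 1, 9 in cell 2 and 4 in all 3. The share of all genes passing was not computed for these settings, nor for those that left out a cell.

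Leaving out each cell in turn gave 2 to 4 members above background in every remaining cell, with 4 without cell 1, and a median SD of 0.47 to 0.71 log2, against 0.53 to 0.70 log2 over all genes. Over the cells left, the median percentile ranged from 58.7 to 61.3 for all members, and the difference between catalytic and regulatory genes from 12.3 to 19 percentile points. No paired analysis was possible because the series has 1 group. The arrays give no depth, and most members lie under the background of the silent genes, where differences in percentile are least certain.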
